A study of Mus musculus with 7 samples.

Results

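The hypoxia response genes described here are 10 genes of the pathway by which cells sense oxygen, read in pancreatic β-cells of diabetic and lean mice. They were chosen by symbol as Hif1a, Epas1, Vegfa, Egln1, Egln3, Bnip3, Ankrd37, Adm, Ndrg1 and Car9, and all 10 were found among the 35013 gene symbols of the deposited count table. Poly-A RNA of sorted β-cells was sequenced as 1 library per mouse, in 3 db/+ mice, 2 db/db mice and 2 mice labelled Aldh1a3 KO_db/db. KO_db/db mice were Lepr db/db and Aldh1a3 fl/fl, with RIP-Cre Herr and 1 tdT fl allele (tdT fl/+). db/db controls had the same Cre, reporter and Lepr db/db alleles with Aldh1a3 fl/+, and db/+ controls carried that Aldh1a3 fl/+ genotype with Lepr db/+. All 3 groups therefore carried the Cre, which is driven by the rat insulin promoter, the tdT reporter and at least 1 floxed Aldh1a3 allele. Lepr db/db mice lack a working leptin receptor and become obese and diabetic, whereas Lepr db/+ mice are lean carriers. Mice of the study were adults of both sexes and were fasted before islets were isolated. The sorting gate of these libraries is not given in the sources used here.

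Hif1a and Epas1 encode α subunits of the hypoxia-inducible factors, which pair with the Arnt protein and bind short DNA elements in their target genes. In oxygen, prolyl hydroxylases of the Egln family modify the α subunits, the Vhl protein recognises them and they are degraded, so that these proteins are controlled mainly through their stability rather than their mRNA. When oxygen is low the α subunits accumulate and raise genes of angiogenesis, glycolysis, acid balance and mitophagy, among them Egln3 itself. β-cells depend on oxidative metabolism of glucose for insulin secretion. All values below are mRNA levels, and α subunit protein, oxygen and promoter binding were not measured in these libraries.

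Total counts ran from 27496645 to 35852785 per library. Levels are given as CPM, counts scaled to the size of each library with the TMM method of edgeR, and 3 counts, taken as the detection floor, corresponded to 0.0717 to 0.123 CPM. The 10 β-cell markers, insulin genes included, held 26.4% and 25.9% of all counts in KO_db/db, 27% and 24.8% in db/db, and 34.3% to 38.7% in db/+. By edgeR, 9 of the 10 were lower in db/db versus db/+, with a median of -1.64 and Slc2a2, Ucn3, Mafa and Slc30a8 at -3.55, -2.93, -2.38 and -2.21, and 7 of the 10 in KO_db/db versus db/+, with a median of -0.81. Aldh1a3, the deleted gene, was at 4.97 and 7.89 CPM in KO_db/db, 98.5 and 194 CPM in db/db, and 0.0730 to 0.589 CPM in db/+. A list of 42 acinar genes held 18.1% of the counts in KO_db/db mouse 1 and 2.05% in KO_db/db mouse 2, against 0.00705% to 0.0590% in the other 5 libraries. Y-linked genes had 2911 counts in db/+ mouse 3 and 20 to 79 in each other library. By these counts only db/+ mouse 3 read as male, so the db/+ group alone mixed the sexes. Summed over their lists, markers of macrophages were at 22.9 to 76.1 CPM per library, those of stellate cells and fibroblasts at 1.39 to 5.64, of ducts at 186 to 432, of alpha-cells at 368 to 1196, of delta-cells at 82.7 to 2274 and of PP-cells at 97.6 to 580. Most of the macrophage sum was C1qa, at 20.9 to 71.3 CPM, and most of the ductal sum was Krt7, at 174 to 326 CPM. In db/db versus db/+, edgeR called 2 macrophage markers higher and 1 lower of 6 tested, 3 ductal markers higher of 4, 1 delta-cell marker lower of 2 and 4 acinar markers higher of 35. In KO_db/db versus db/+ it called 38 acinar markers higher of 39, 4 ductal markers higher of 6, 2 alpha-cell markers higher of 4 and 1 macrophage marker lower of 3. These are bulk samples, in which fewer cells of a type and less RNA per cell cannot be told apart.

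Promoter windows were read because hypoxia-inducible factors bind elements with the core ACGTG or GCGTG. RefSeq windows on GRCm38.p6, 250 bases before to 50 bases after a start site, were matched for 8 of the 10 genes; Epas1 and Ndrg1 were not matched. Both 5-base words were searched on both strands, so that CACGTG counts as 2 overlapping ACGTG matches, 1 per strand. The windows shown are 4, in the direction of transcription. They are those of a gene that was higher in db/db (Egln3), of a gene that was lower (Vegfa), and of the genes with the most matches (Bnip3 and Ankrd37). Capitals mark the matches on either strand.
Egln3, minus strand, chr12:54203825-54204124: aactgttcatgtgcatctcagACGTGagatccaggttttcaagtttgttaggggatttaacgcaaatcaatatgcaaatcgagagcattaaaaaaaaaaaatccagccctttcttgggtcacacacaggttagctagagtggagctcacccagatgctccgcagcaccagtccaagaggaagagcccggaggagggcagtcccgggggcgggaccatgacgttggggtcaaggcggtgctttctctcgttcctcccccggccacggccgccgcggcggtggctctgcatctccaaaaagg
Vegfa, minus strand, chr17:46032328-46032627: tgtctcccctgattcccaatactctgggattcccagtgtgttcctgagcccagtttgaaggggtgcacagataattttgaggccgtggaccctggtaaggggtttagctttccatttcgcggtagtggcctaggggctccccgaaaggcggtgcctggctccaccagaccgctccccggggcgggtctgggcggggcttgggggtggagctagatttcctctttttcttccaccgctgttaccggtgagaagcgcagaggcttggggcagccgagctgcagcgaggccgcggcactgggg
Bnip3, minus strand, chr7:138909457-138909756: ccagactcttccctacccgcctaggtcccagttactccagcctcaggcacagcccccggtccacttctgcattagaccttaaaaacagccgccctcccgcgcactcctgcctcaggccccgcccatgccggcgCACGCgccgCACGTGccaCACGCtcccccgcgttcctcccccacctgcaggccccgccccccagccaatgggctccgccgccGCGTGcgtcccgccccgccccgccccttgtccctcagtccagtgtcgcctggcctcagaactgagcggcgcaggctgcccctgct
Ankrd37, minus strand, chr8:45999801-46000100: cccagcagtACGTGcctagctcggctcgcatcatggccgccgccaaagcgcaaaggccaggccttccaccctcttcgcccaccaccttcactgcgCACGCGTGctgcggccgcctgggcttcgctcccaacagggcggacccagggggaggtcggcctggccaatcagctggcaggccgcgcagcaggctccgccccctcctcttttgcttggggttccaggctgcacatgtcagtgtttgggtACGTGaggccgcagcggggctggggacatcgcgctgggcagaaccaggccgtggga
The Egln3 window held 1 ACGTG, with its first base at position -229 from the start site, and no GCGTG. The Bnip3 window held 2 ACGTG matches, in the overlapping word, and 3 GCGTG matches. In the Ankrd37 window ACGTG began at positions -241 and -6, and 2 GCGTG matches lay between them. The Vegfa window at the start of the gene held neither word, and a window at a RefSeq start inside the gene held 1 of each. The windows of Ankrd37 and Hif1a also lie inside the annotated genes. Of the windows not shown, that of Hif1a held 3 ACGTG, that of Egln1 held 1 of each word, that of Adm held 2 GCGTG and that of Car9 held 1 ACGTG. Over 32817 mouse promoter windows of the same length, 19.6% held ACGTG, 32.4% held GCGTG and 43.8% held either. A match is a run of letters and not a measured binding site.

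Across the 3 groups the 10 genes did not move as a block. In db/db β-cells Epas1 and Egln3 were far above their db/+ levels, while Vegfa and Ndrg1 were below them, and Hif1a, Egln1, Bnip3 and Ankrd37 did not pass the test. The KO_db/db libraries lay on the db/+ side of the db/db libraries for Vegfa, Egln3, Epas1 and Ndrg1, but none of these differences from db/db passed the adjusted threshold of the main test. Adm was at or near the detection floor in all libraries, and Car9 in those of db/db and db/+. Fits used the libraries of the 2 groups compared, the quasi-likelihood test of edgeR and Benjamini-Hochberg adjustment over all genes that passed a filter on low counts, and called means an adjusted p under 0.05. Of the 10 genes, 8 passed the filter in each comparison; Adm and Car9 did not.

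**Figure D1:**
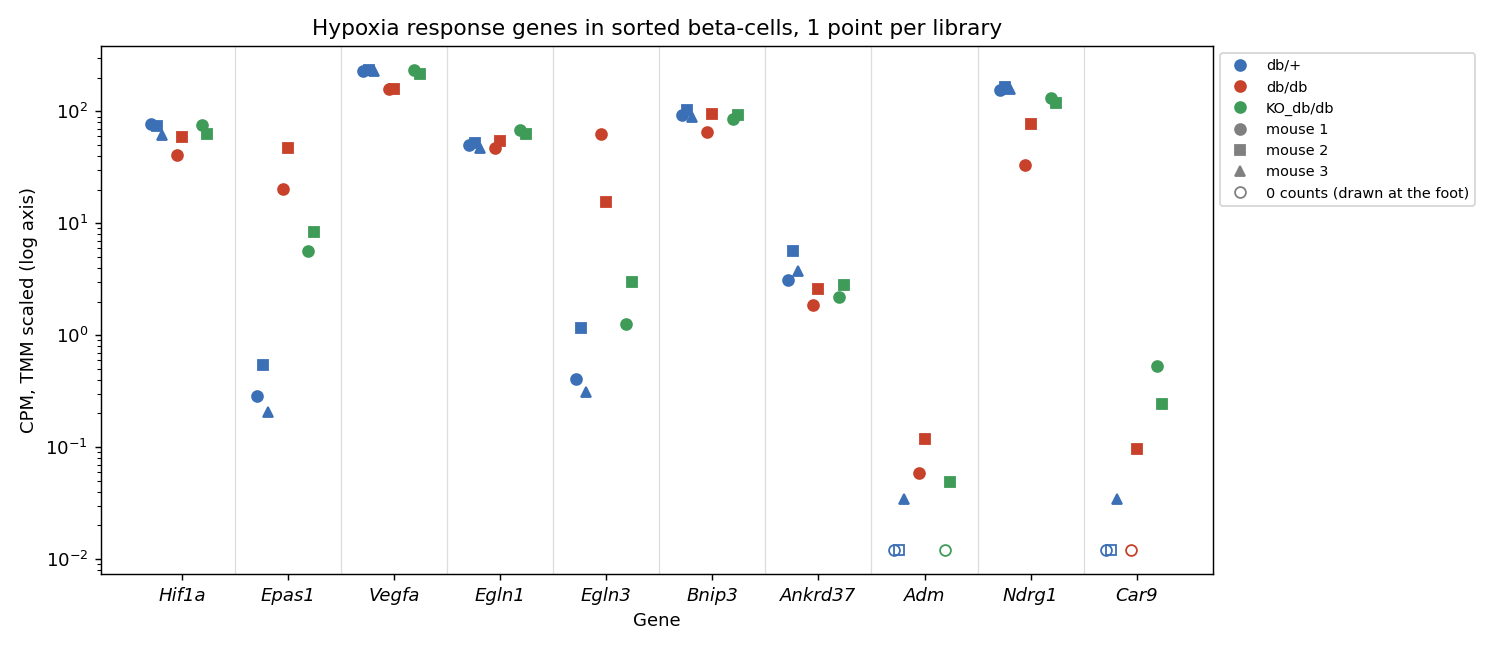
CPM of the 10 hypoxia response genes in each library, on a log axis, with colour for the group, shape for the mouse number and open symbols for 0 counts. Epas1 ran from 0.208 CPM in a db/+ library to 47.5 CPM in a db/db library, whereas Hif1a stayed between 41.1 and 77.1 CPM.

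Among 13406 genes tested in db/db versus db/+, 19.9% were called higher and 18.0% lower. Of the 8 hypoxia response genes tested, 2 were called higher and 2 lower, and their median log2 fold change was -0.39, beside 0.01 over all genes tested. For 6 of the 8 the db/db and db/+ libraries did not overlap, as was the case for 63.3% of all genes tested. In KO_db/db versus db/+, 20.5% of 13228 genes were called higher and 17.9% lower. There 2 of the 8 were called higher and 1 lower, with a median of -0.03 beside 0.00 over all genes, and 5 of the 8 did not overlap, beside 64.1% of all genes. In KO_db/db versus db/db, 0.126% of 13486 genes were called higher and 0.193% lower. None of the 8 was called there by the main edgeR fit, and 5 had an unadjusted p under 0.05, as had 2814 of all genes tested. DESeq2 called 4, beside 746 higher and 628 lower over all 13486 genes. The fit without a filter on low counts called 3 of 10, beside 804 higher and 766 lower over all genes. The fit of all 7 libraries called 3 of 8, beside 504 higher and 314 lower. In the main fit the median of the 8 was 0.27, beside -0.02 over all genes, and 6 of the 8 did not overlap, beside 57.5% of all genes. Each group enters more than one of these comparisons, so the comparisons share libraries and are not independent.

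**Figure D2:**
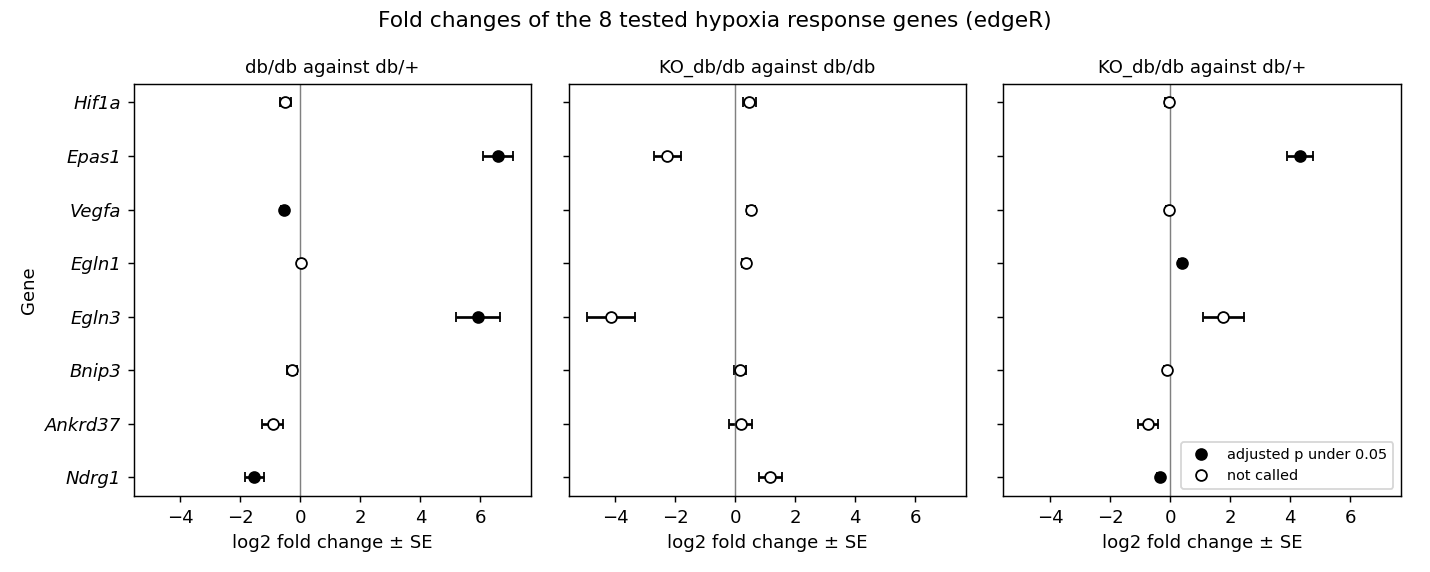
log2 fold changes of the 8 tested genes in the 3 comparisons, with bars for the standard error and filled symbols for an adjusted p under 0.05 by edgeR. Epas1 stood at 6.59 in db/db versus db/+, -2.27 in KO_db/db versus db/db and 4.33 in KO_db/db versus db/+.

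The α subunit genes differed from each other. Hif1a (ENSMUSG00000021109.13) is on chromosome 12 between 73901375 and 73947530 (GRCm38, the build of every position given here). It was measured at 76.3 and 62.5 CPM in KO_db/db, 41.1 and 59.3 CPM in db/db, and 77.1, 74.1 and 61.8 CPM in db/+. Both db/db libraries lay below all others, by a small margin for mouse 2. The log2 fold change in db/db versus db/+ was -0.51 (SE 0.18), with an adjusted p of 0.0687 by edgeR. Without db/db mouse 2 it was -0.80 with an adjusted p of 0.0160, and without db/db mouse 1 it was -0.27 with an adjusted p of 0.229. Of the alternatives, 4 of 11 called it lower, DESeq2 (0.0379) and the fit without a filter on low counts (0.0286) among them, within a range of 0.0160 to 0.229. Hif1a in KO_db/db had a log2 fold change of 0.46 relative to db/db (SE 0.22, adjusted p = 0.299), and relative to db/+ it was -0.03 (SE 0.14, adjusted p = 0.893). Its exons share 330 bases with the antisense gene Gm15283 and 148 bases with Gm49321 on the same strand.

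Epas1 (ENSMUSG00000024140.10, chromosome 17 from 86753700 to 86833410) encodes another α subunit, best known from endothelial cells. Its level was 5.63 and 8.45 CPM in KO_db/db, 20.4 and 47.5 CPM in db/db, and 0.287, 0.547 and 0.208 CPM in db/+. The 3 groups did not overlap, with db/+ lowest, KO_db/db between and db/db highest. In db/+ these levels rest on 7, 15 and 6 counts. In db/db versus db/+ Epas1 rose by 6.59 on the log2 scale (SE 0.50, adjusted p = 0.000577 by edgeR), a 96.1-fold difference, and the log2 fold change was between 5.84 and 7.08 in all 11 alternatives, each of which called it. In KO_db/db it was 4.33 above db/+ on the log2 scale (SE 0.43, adjusted p = 0.00107), a 20.2-fold difference, again called in all 11 alternatives. Relative to db/db, the log2 fold change in KO_db/db was -2.27 (SE 0.46, adjusted p = 0.104). It was -1.53 without db/db mouse 2 and -2.75 without db/db mouse 1. Over 10 alternatives that adjusted p ran from 5.97e-06 with DESeq2 to 0.274, and 3 of them called Epas1.

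Markers of endothelial cells were read beside Epas1 and Adm. Summed over 15 genes they were at 18.5 and 17.3 CPM in KO_db/db, 22.3 and 29.1 CPM in db/db, and 15.3, 17.8 and 54.0 CPM in db/+. Most of the sum in db/+ mouse 3 was Pecam1 at 45.3 CPM, and Epas1 was at its lowest in that library. Cdh5, a junction protein that defines endothelium, lay between 0.0346 and 0.413 CPM in all 7 libraries, with the db/+ libraries at 0.123, 0.182 and 0.0346 CPM and the db/db libraries at 0.0587 and 0.287 CPM. Of 10 endothelial markers tested in db/db versus db/+, 3 were called higher (Vwf, Flt1 and Plvap) and none lower, with a median of 2.01, and these 3 were each at 3.85 CPM or less in every library. Per library, 0 to 2 of the 15 markers were at 0. For KO_db/db versus db/+, where Epas1 was also higher, 2 of 7 endothelial markers were called higher (Kdr and Flt1) and 1 lower (Esam). The part of endothelial RNA in the Epas1 difference was not tested.

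Levels of different genes were compared per kilobase of annotated exon. On that scale Hif1a was at 12.9 and 10.6 CPM per kb in KO_db/db, 6.97 and 10.1 in db/db, and 13.1, 12.6 and 10.5 in db/+. Epas1 was at 1.006 and 1.51 CPM per kb in KO_db/db, 3.65 and 8.49 in db/db, and 0.0513, 0.0979 and 0.0372 in db/+. Hif1a was thus the more abundant of these 2 mRNAs in every library. The share of Epas1 in the sum of both was 7.22% and 12.5% in KO_db/db, 34.3% and 45.8% in db/db, and 0.391%, 0.773% and 0.354% in db/+. Read length and fragment bias were not modelled on this scale.

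Egln1 and Egln3 encode prolyl hydroxylases that mark the α subunits for degradation, and Egln1 is the main oxygen sensor in most tissues. Egln1 (ENSMUSG00000031987.6, chromosome 8 from 124908587 to 124949324) was at 67.9 and 62.5 CPM in KO_db/db, 47.4 and 54.3 CPM in db/db, and 49.9, 52.6 and 47.0 CPM in db/+. db/db and db/+ overlapped, and both KO_db/db libraries lay above all others. KO_db/db was also the group with the highest share of acinar counts, with mouse 1 above mouse 2 as for Egln1. The part of acinar RNA in the Egln1 difference was not tested. The log2 fold change was 0.02 (SE 0.11, adjusted p = 0.920 by edgeR) in db/db versus db/+ and 0.36 (SE 0.14, adjusted p = 0.238) in KO_db/db versus db/db. Compared with db/+, Egln1 rose in KO_db/db by 0.39 on the log2 scale (SE 0.09, adjusted p = 0.0176). That call was lost in 3 of 11 alternatives, among them without KO_db/db mouse 1 (0.33, adjusted p = 0.0907) and without db/+ mouse 1 (0.39, adjusted p = 0.0585), within a range of 0.00156 to 0.0907.

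Egln3 (ENSMUSG00000035105.5, chromosome 12 from 54178981 to 54203860) is itself a target of the pathway, and its promoter window is the first of those shown above. Its level was 1.27 and 3.01 CPM in KO_db/db, 62.8 and 15.4 CPM in db/db, and 0.409, 1.17 and 0.312 CPM in db/+. Both db/db libraries lay above all others, with mouse 1 well above mouse 2, and KO_db/db lay above db/+ by a small margin. In db/db versus db/+ Egln3 rose by 5.93 on the log2 scale (SE 0.74, adjusted p = 0.00187 by edgeR), a 60.9-fold difference, and all 11 alternatives called it with log2 fold changes between 4.59 and 6.74. Relative to db/db, Egln3 in KO_db/db had a log2 fold change of -4.15 (SE 0.81, adjusted p = 0.0997). Without db/db mouse 2 it was -4.83 with an adjusted p of 0.0373, and without db/db mouse 1 it was -2.82 with an adjusted p of 0.171. Over 10 alternatives the adjusted p ran from 2.26e-06 to 0.224, with 4 calls. Relative to db/+ the KO_db/db value was 1.78 (SE 0.68, adjusted p = 0.0798), and without db/+ mouse 2 it was 2.58 (adjusted p = 0.0360) and without KO_db/db mouse 2 it was 1.005 (adjusted p = 0.433), within 0.0360 to 0.433 over 11 alternatives.

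Egln2, the third hydroxylase of the family, was read from the list of pathway proteins. Per kilobase of exon it was at 20.3 and 19.97 CPM per kb in KO_db/db, 19.5 and 20.6 in db/db, and 13.4, 12.4 and 13.8 in db/+. Egln3 was at 0.478 and 1.13 CPM per kb in KO_db/db, 23.6 and 5.78 in db/db, and 0.154, 0.438 and 0.117 in db/+. As a share of the 3 Egln genes, Egln3 was 1.21% and 2.94% in KO_db/db, 42.0% and 13.9% in db/db, and 0.560%, 1.60% and 0.434% in db/+. In db/db mouse 1 it was the most abundant of the 3 mRNAs per kilobase, and in the other 6 libraries it was the least abundant.

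**Figure D3:**
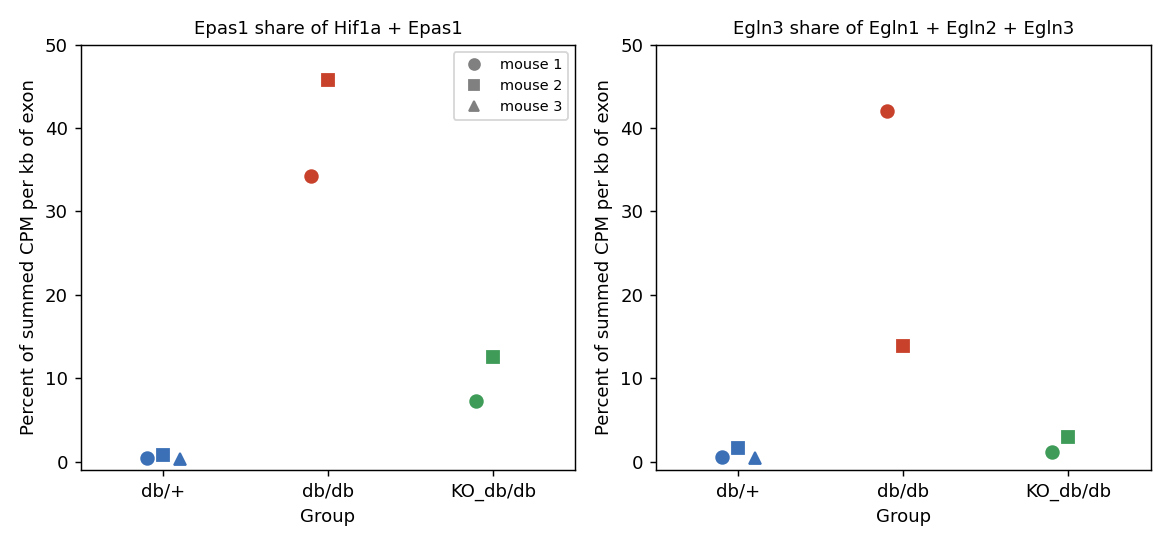
Share of Epas1 in the summed CPM per kilobase of exon of Hif1a and Epas1 (left), and share of Egln3 in that of Egln1, Egln2 and Egln3 (right), 1 point per library in 3 groups. Both shares were under 2% in every db/+ library and at least 13.9% in every db/db library.

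Immediate early and heat shock genes, which respond to tissue dissociation among other stimuli, were read beside Egln3. Summed over 15 genes they were at 495 and 1212 CPM in KO_db/db, 4034 and 1725 CPM in db/db, and 520.5, 463 and 547 CPM in db/+. As for Egln3, db/db mouse 1 was the highest library and db/db mouse 2 the next. Of the 15 genes, 12 were called higher in db/db versus db/+ with a median of 2.13, 5 were called higher in KO_db/db versus db/+ with a median of 1.04, and none was called by edgeR in KO_db/db versus db/db, where the median was -1.63. In db/db versus db/+ Egr1 rose by 3.90, Jun by 3.68, Hspa1a by 3.67 and Fosb by 3.51 on the log2 scale. Relative to db/+, Egr1 rose in KO_db/db by 2.28, Jun by 1.65, Junb by 1.32 and Zfp36 by 0.99. Epas1 had the opposite order within db/db, with mouse 2 above mouse 1. The part of handling in the Egln3 difference was not tested.

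Vegfa (ENSMUSG00000023951.17, chromosome 17 from 46016993 to 46032369) encodes the growth factor through which β-cells maintain the islet vasculature. Per kilobase of exon it was the most abundant of the 10 genes in db/+ and KO_db/db, at 53.8 and 52.7 CPM per kb on average, and in db/db its mean was 36.7, next to Bnip3 at 35.2. Its level was 235 and 217 CPM in KO_db/db, 157 and 158 CPM in db/db, and 229.7, 234 and 228 CPM in db/+. KO_db/db and db/+ overlapped, and both db/db libraries lay below all others. Vegfa fell by 0.56 on the log2 scale in db/db versus db/+ (SE 0.10, adjusted p = 0.00606 by edgeR), and all 11 alternatives called it with log2 fold changes between -0.57 and -0.55. From db/db to KO_db/db the log2 fold change was 0.52 (SE 0.14, adjusted p = 0.152), with adjusted p between 0.0101 and 0.588 over 10 alternatives, 2 of which called it. Against db/+ it was -0.02 (SE 0.10, adjusted p = 0.861) in KO_db/db.

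Of 9 other ligands and receptors of the VEGF family, 8 were tested in db/db versus db/+, with 2 called higher and 2 lower and a median of 1.28. Vegfb, a ligand of Flt1, was at 28.4 and 22.0 CPM in KO_db/db, 7.05 and 10.97 CPM in db/db, and 33.8, 32.8 and 29.9 CPM in db/+. As with Vegfa, both db/db libraries lay below all others. Vegfb fell by 1.84 (SE 0.21, adjusted p = 0.00144 by edgeR) and Pgf by 1.09 (SE 0.15, adjusted p = 0.00255) on the log2 scale in db/db versus db/+. Vegfd was at 0.205 and 0.194 CPM in KO_db/db, 4.96 and 1.75 CPM in db/db, and 0.104 to 0.287 CPM in db/+. Between KO_db/db and db/db, none of 8 was called by edgeR, with Vegfd at -4.05 (SE 0.71, adjusted p = 0.0897) and Vegfb at 1.48 (SE 0.27, adjusted p = 0.0938). Compared with db/+, 4 of 7 were called higher in KO_db/db, all with a mean under 5 CPM, and Pgf fell by 1.19 (SE 0.20, adjusted p = 0.00549).

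Ndrg1 (ENSMUSG00000005125.13, chromosome 15 from 66929318 to 66969640) encodes a stress-responsive protein that is raised by hypoxia in many cell types. Its level was 130.5 and 118 CPM in KO_db/db, 33.5 and 76.8 CPM in db/db, and 155, 164 and 159 CPM in db/+. The 3 groups did not overlap, in the order opposite to that of Epas1. In db/db versus db/+ Ndrg1 fell by 1.54 on the log2 scale (SE 0.33, adjusted p = 0.0116 by edgeR), between -2.27 and -1.07 in the 11 alternatives, all of which called it. The lower end of that range came without db/db mouse 2 and the upper end without db/db mouse 1. From db/db to KO_db/db the log2 fold change was 1.17 (SE 0.39, adjusted p = 0.192). Without db/db mouse 2 it was 1.89 with an adjusted p of 0.0354, and without db/db mouse 1 it was 0.69 with an adjusted p of 0.233. Over 10 alternatives the adjusted p ran from 0.00449 to 0.496, with 3 calls. Compared with db/+, Ndrg1 fell in KO_db/db by 0.35 (SE 0.10, adjusted p = 0.0270), a call that 5 of 11 alternatives kept and that was lost without each library in turn except db/+ mouse 3. Its exons overlap the opposite-strand genes Gm17035 by 419 bases and Gm2895 by 137 bases.

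Of 3 paralogs of Ndrg1, Ndrg4 was called higher and Ndrg3 lower in db/db versus db/+. Ndrg4 rose by 0.79 on the log2 scale (SE 0.12, adjusted p = 0.00410 by edgeR) and Ndrg3 fell by 0.50 (SE 0.12, adjusted p = 0.0159). KO_db/db had Ndrg4 and Ndrg2 called higher than db/+. Ndrg4 rose by 0.76 (SE 0.10, adjusted p = 0.00278), and Ndrg2 was at 5.99 CPM in KO_db/db mouse 1 and at 0.0881 to 0.850 CPM in the other 6 libraries. KO_db/db mouse 1 also had the highest share of acinar counts, 18.1%. The part of acinar RNA in the Ndrg2 difference was not tested. None of the 3 was called by edgeR in KO_db/db versus db/db.

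Bnip3 (ENSMUSG00000078566.8, chromosome 7 from 138890836 to 138909519) encodes a mitochondrial receptor for mitophagy. Its level was 84.9 and 92.2 CPM in KO_db/db, 65.0 and 94.3 CPM in db/db, and 93.5, 104 and 89.3 CPM in db/+. db/db mouse 1 was the lowest library and db/db mouse 2 lay within the db/+ range, so all groups overlapped. The log2 fold change was -0.27 (SE 0.17, adjusted p = 0.255 by edgeR) in db/db versus db/+, 0.15 (SE 0.21, adjusted p = 0.701) in KO_db/db versus db/db and -0.10 (SE 0.10, adjusted p = 0.444) in KO_db/db versus db/+. Without db/db mouse 2 it was -0.57 in db/db versus db/+ with an adjusted p of 0.0244, and without db/db mouse 1 it was -0.03 with an adjusted p of 0.871, the lowest and highest p of 11 alternatives. Its promoter window, shown above, held the most matches of the 8 genes. Exons of Bnip3 share 504 bases with the antisense gene Gm45507.

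Of 16 other mitophagy genes, 15 were tested in db/db versus db/+, with 2 called higher and 4 lower and a median of -0.04. Ulk1, a kinase that starts autophagy, rose by 1.04 on the log2 scale (SE 0.17, adjusted p = 0.00496 by edgeR) and Optn, a cargo receptor, by 0.97 (SE 0.14, adjusted p = 0.00334). Gabarap and Gabarapl2, proteins of the autophagosome membrane, fell by 0.77 and 0.61. Relative to db/+, 3 were called higher in KO_db/db and 5 lower, with Pink1 at 0.75, Optn at 0.73, Gabarap at -0.59 and Sqstm1 at 0.47. None was called by edgeR in KO_db/db versus db/db, where Ulk1 was at -0.72 (SE 0.19, adjusted p = 0.149).

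Ankrd37 (ENSMUSG00000050914.16, chromosome 8 from 45996902 to 46005707) encodes an ankyrin repeat protein and is a target of hypoxia-inducible factors. Its level was 2.22 and 2.79 CPM in KO_db/db, 1.85 and 2.58 CPM in db/db, and 3.11, 5.65 and 3.78 CPM in db/+. KO_db/db and db/db overlapped, and the 3 db/+ libraries lay above both. The log2 fold change was -0.92 (SE 0.35, adjusted p = 0.0763 by edgeR) in db/db versus db/+, 0.18 (SE 0.37, adjusted p = 0.811) in KO_db/db versus db/db and -0.73 (SE 0.33, adjusted p = 0.123) in KO_db/db versus db/+. No alternative called it in any comparison. The counts behind these levels were between 54 and 155 per library, and its exons overlap the opposite-strand genes Lrp2bp by 349 bases and Ufsp2 by 57 bases.

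Adm (ENSMUSG00000030790.15, chromosome 7 from 110627661 to 110629820) encodes adrenomedullin, a vasodilator peptide of endothelium. It had 0 and 2 counts in KO_db/db, 2 and 5 counts in db/db, and 0, 0 and 1 counts in db/+. Only db/db mouse 2 was above 3 counts, and no difference in Adm was detectable at this depth. A list of 5 genes held its receptor genes and the related peptide gene Adm2. Of these, 3 were tested in db/db versus db/+ and only Ramp1, an accessory subunit of the receptor, was called. It rose by 1.02 on the log2 scale (SE 0.27, adjusted p = 0.0254 by edgeR). In KO_db/db none of 4 was called by edgeR against db/db or against db/+.

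Car9 (ENSMUSG00000028463.14, chromosome 4 from 43506966 to 43513729) encodes a cell surface carbonic anhydrase that is widely used as a marker of hypoxia. It had 13 and 10 counts in KO_db/db, 0 and 4 counts in db/db, and 0, 0 and 1 counts in db/+. Both KO_db/db libraries, at 0.534 and 0.243 CPM, lay above the other 5, of which the highest was at 0.0956 CPM. Without the filter on low counts its adjusted p was 0.0398 in KO_db/db versus db/+ and 0.329 in KO_db/db versus db/db. No fold is given, since the db/+ group held 1 count in all. Its exons share 214 bases with the antisense gene Gm12454. The KO_db/db libraries were also those with the highest share of acinar counts, in the same order as for Car9, and the part of acinar RNA in the Car9 counts was not tested.

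Of 15 other carbonic anhydrase genes, 7 were tested in db/db versus db/+, with 1 called higher and 2 lower and a median of 0.26. Car15 was at 12.5 and 6.73 CPM in KO_db/db, 2.61 and 3.23 CPM in db/db, and 43.5, 58.3 and 35.3 CPM in db/+. The 3 groups did not overlap, in the same order as for Ndrg1. Car15 fell by 3.97 on the log2 scale in db/db versus db/+ (SE 0.27, adjusted p = 0.000447 by edgeR) and by 2.26 in KO_db/db versus db/+ (SE 0.33, adjusted p = 0.00326). From db/db to KO_db/db Car15 was at 1.71 (SE 0.37, adjusted p = 0.116). Car10 fell by 1.07 in db/db versus db/+ (SE 0.20, adjusted p = 0.00775).

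The proteins that act with the α subunits were read from a list of 17 genes, all of which were tested. In db/db versus db/+, 7 were called higher and 5 lower, with a median of 0.21, and in KO_db/db versus db/+ 6 were called higher and 6 lower, with a median of 0.22. Crebbp and Ep300, the coactivators of the α subunits, rose in db/db versus db/+ by 2.42 (SE 0.19, adjusted p = 0.000590 by edgeR) and 1.30 (SE 0.16, adjusted p = 0.00177) on the log2 scale, and in KO_db/db versus db/+ by 2.42 and 1.55. Arnt2, a partner of the α subunits, rose by 2.187 in db/db and by 1.80 in KO_db/db. Cited2, which competes with the α subunits for these coactivators, was at 11.7 and 13.2 CPM in KO_db/db, 42.5 and 28.5 CPM in db/db, and 59.6, 47.5 and 64.7 CPM in db/+. KO_db/db was its lowest group, with a log2 fold change of -2.20 against db/+ (SE 0.16, adjusted p = 0.000686) and -1.52 against db/db (SE 0.24, adjusted p = 0.0844). No gene of the list was called by edgeR in KO_db/db versus db/db, where the median was -0.15.

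Among 16 glycolytic targets of the pathway, 13 were tested in db/db versus db/+, with 3 called higher and 3 lower and a median of -0.23. Pfkfb3, which makes an activator of glycolysis, was at 6.49 and 7.48 CPM in KO_db/db, 91.0 and 34.3 CPM in db/db, and 3.19, 4.05 and 1.91 CPM in db/+. It rose by 4.35 on the log2 scale in db/db versus db/+ (SE 0.47, adjusted p = 0.00122 by edgeR), and its log2 fold change in KO_db/db versus db/db was -3.16 (SE 0.49, adjusted p = 0.0844). Pdk1, a kinase that inhibits pyruvate dehydrogenase, rose by 1.83 (SE 0.29, adjusted p = 0.00397) in db/db versus db/+, and the glycolytic enzyme Gpi1 by 1.63 (SE 0.32, adjusted p = 0.00902). Pdk1 was at 149 and 71.9 CPM in db/db and at 26.4 to 34.1 CPM in db/+. Gpi1 was at 481 and 201 CPM in db/db and at 101.5 to 116 CPM in db/+. As for Egln3, db/db mouse 1 was the highest and db/db mouse 2 the next library for Pfkfb3, Pdk1 and Gpi1. Slc2a1, a glucose transporter, went the other way, at 6.65 and 7.14 CPM in KO_db/db, 0.705 and 2.22 CPM in db/db, and 10.6, 10.1 and 13.8 CPM in db/+. It fell by 2.96 in db/db versus db/+ (SE 0.47, adjusted p = 0.00405). KO_db/db had 4 of 14 called higher than db/+ and 1 lower, with Slc2a1 at -0.73, Gpi1 at 0.53 and Pdk1 at 0.43, and none of 14 was called by edgeR in KO_db/db versus db/db.

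**Figure D4:**
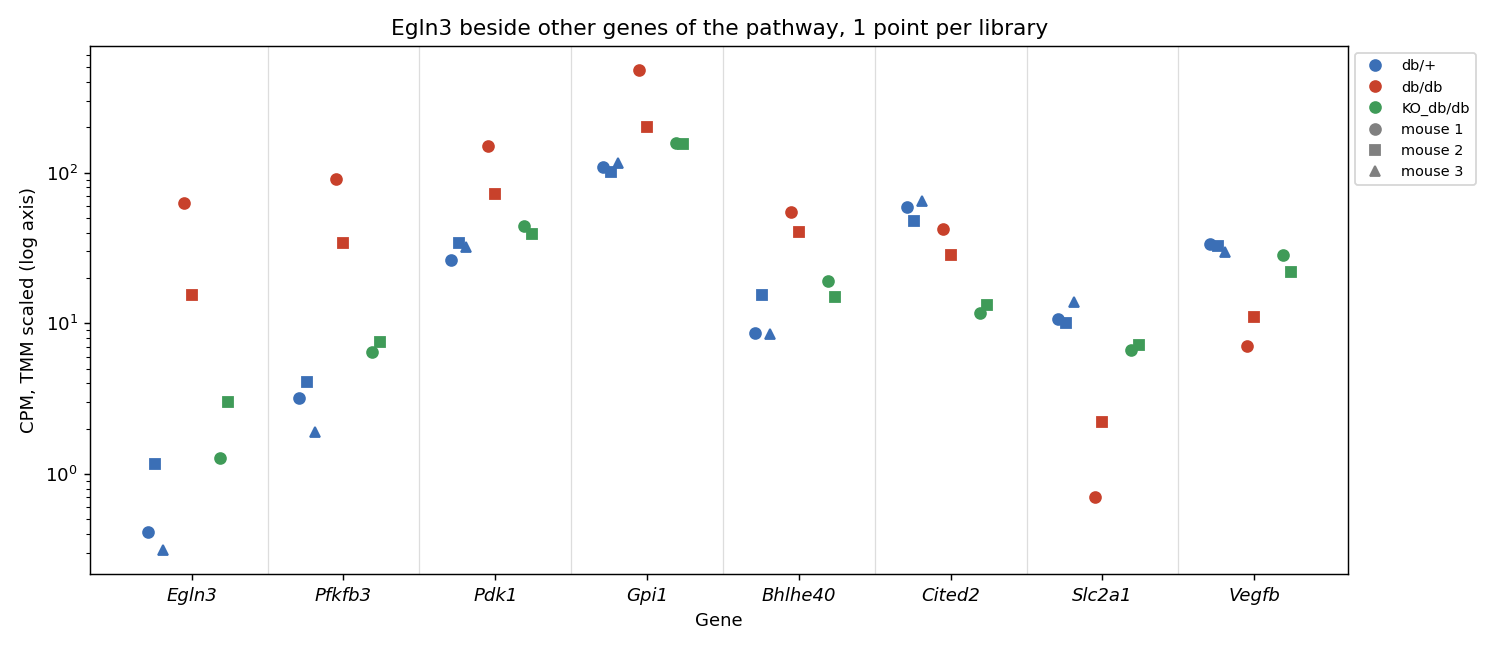
CPM in each library, on a log axis, of Egln3 and of 7 genes named from the lists of the pathway, with colour for the group and shape for the mouse number. Egln3, Pfkfb3, Pdk1, Gpi1 and Bhlhe40 were highest in both db/db libraries, and Slc2a1 and Vegfb were lowest there.

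A further list of 41 targets of hypoxia-inducible factors had 33 genes tested in db/db versus db/+, with 9 called higher and 3 lower and a median of 0.00. Bhlhe40, a transcriptional repressor, rose by 2.12 on the log2 scale (SE 0.28, adjusted p = 0.00235 by edgeR), and Ddit4, an inhibitor of mTOR signalling, by 1.38 (SE 0.18, adjusted p = 0.00220). P4ha2, a collagen prolyl hydroxylase, rose by 1.30 (SE 0.18, adjusted p = 0.00244), and Vldlr, a lipoprotein receptor, fell by 0.99 (SE 0.20, adjusted p = 0.00919). Compared with db/+, KO_db/db had 3 of 32 called higher and 3 lower, among them Ddit4 at 1.47, Ppp1r3c at -0.83, Kdm4b at 0.73 and Insig2 at -0.65. Ddit4 was at 78.9 CPM in KO_db/db mouse 1 and 32.4 CPM in KO_db/db mouse 2, and at 18.05 to 23.65 CPM in db/+. None of 34 was called by edgeR in KO_db/db versus db/db, where Bhlhe40 was at -1.49 (SE 0.22, adjusted p = 0.0844). These gene lists hold targets known from other cell types.

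Likeness of pattern was described by Pearson's r of log2 CPM over the 7 libraries, among 7811 genes with a mean of at least 10 CPM. The libraries are the same points for every gene and fall into 3 groups, so r carries the group differences and no test was made. Egln3 was most like Zscan29 (0.992), Pfkfb3 (0.990) and Rbm28 (0.988). Among the 3 genes nearest to Epas1 were Rpl4 (0.998) and Lrig1 (0.993). Vegfa had Dync2li1 (0.996), Itpkb (0.991) and Papss2 (0.989) as its nearest, and Ndrg1 had Insm1 (0.996), Wdr6 (0.993) and Fam83g (0.992). Rpl4 and Lrig1 differed less between groups than Epas1 itself, with Rpl4 between 597 and 1164 CPM. Among the hypoxia response genes other than Adm and Car9, Egln3 and Ndrg1 were the most opposed pair, with r of -0.95, and Epas1 and Egln3 had r of 0.87.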

How the data were processed

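The 7 poly-A libraries were grouped by the labels of the samples. The authors deposited estimated counts per gene from kallisto with GRCm38 as the reference, as whole numbers without normalization, and the submitters' processing notes name bcl2fastq 2.19 and kallisto 0.44.0. The annotation release and strandedness are not given in the sources used here. The columns of all 7 samples were used. kallisto divides reads that fit several transcripts, so counts of overlapping or similar genes are uncertain. Total counts are given above, and replicate libraries differed by more than sampling noise.

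From the deposited counts, fits of 2 groups at a time, without the other libraries, were made in R 4.3.3 with edgeR 4.0.16, using filterByExpr with a minimum count of 10, TMM scaling, the quasi-likelihood test and Benjamini-Hochberg adjustment over all genes tested, with a threshold of 0.05. CPM was scaled by TMM over all 7 libraries, and correlations used log2 CPM with a prior count of 2. Simulated counts were drawn with the same dispersion for every gene, and 200 genes were changed by 2 on the log2 scale. There edgeR recovered 194 with 8 other calls among 13194 genes in db/db against db/+. It recovered 158 with 7 among 13292 in KO_db/db against db/db, and 188 with 4 among 13047 in KO_db/db against db/+. Genes of the real libraries differ in their spread, so these recoveries do not carry over to the real fits. In the real fit of KO_db/db against db/db, none of 40 acinar markers was called at a median log2 fold change of 8.04. Gene positions and exon lengths are from GENCODE M21 on GRCm38, and promoter windows from RefSeq.

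The genes and lists were chosen with earlier results of these data known. Besides the 10 genes, those eligible to be named were up to 4 called genes per list and comparison with the largest fold change and a mean of at least 5 CPM, and where none was called, up to 2 with the smallest adjusted p. Markers of other cell types are given mostly as counts and sums. Egln2 and the genes named beside a count or a marker sum, among them Ndrg2, Vwf, Flt1, Plvap, Kdr, Pecam1, Esam and Cdh5, were chosen after their values were seen. Alternatives were RLE scaling, DESeq2 1.42.0, which the study's methods name, genes of low counts kept, a joint fit of the 3 groups, a block for mouse number, the acinar genes left out, and each library left out in turn. Lists of macrophage, stellate and fibroblast, ductal, alpha-, delta- and PP-cell markers were also summed. 1 gene that the rule on likeness of pattern names is not reported here.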

Additional observations from a re-analysis of the deposited data

How the results depend on the processing

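In db/db against db/+, 4 hypoxia response genes were called, beside 2662 higher and 2407 lower over all genes. Alternatives with at least 2 libraries in each group called 4 or 5, with Epas1, Egln3, Vegfa and Ndrg1 among them each time. Over all genes their calls ran from 1865 higher and 1466 lower without db/+ mouse 1 to 2962 and 2673 with DESeq2. In KO_db/db against db/db none was called, and DESeq2 called 4, the fit without a filter on low counts 3 and the fit of all 7 libraries 3. Over all genes these alternatives called 746 higher and 628 lower, 804 and 766, and 504 and 314, beside 17 and 26, and the cause was not tested. Leaving out db/db mouse 2 moved the log2 fold changes of Egln3 to -4.83 and of Ndrg1 to 1.89 there. Leaving out db/db mouse 1 moved them to -2.82 and 0.69. In KO_db/db against db/+, 3 were called, and 5 without the filter (Egln3 and Car9 added). DESeq2 called 4 (Egln3 added), and the fit of all 7 libraries called 2 (Ndrg1 lost). Over all genes these alternatives called 2862 higher and 2428 lower, 2990 and 2625, and 2524 and 2088, beside 2712 and 2369. Leaving out 1 db/+ mouse called 1 to 3 of the genes. Without db/+ mouse 1 only Epas1 was called, beside 1999 higher and 1435 lower over all genes. Without db/+ mouse 2, 3 were called, beside 2048 higher and 1501 lower. Without db/+ mouse 3, 3 were called, beside 2600 higher and 2125 lower. Without KO_db/db mouse 1 Egln1 was at 0.33 and Ndrg1 at -0.425. Leaving out the acinar genes kept the counts at 4, 0 and 3. That setting removes only the rows of the acinar list, so it cannot show what acinar RNA adds to other genes.

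Mouse numbers did not pair the libraries, since same-numbered libraries correlated between -0.10 and 0.08. With the mouse number as a replicate block, 5, 0 and 1 genes were called in the 3 comparisons. Over all genes, db/db versus db/+ then had 2409 calls upward and 2107 downward. KO_db/db versus db/db had 9 upward and 13 downward, and KO_db/db versus db/+ had 2125 upward and 1661 downward. The block ended the calls of Egln1 (0.35, adjusted p = 0.0737) and Ndrg1 (-0.35, adjusted p = 0.0926) in KO_db/db against db/+ and added Hif1a (-0.62, adjusted p = 0.0363) in db/db against db/+, where Egln1 turned to -0.024.

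Directions turned for fold changes near 0 that were not called. These were Egln1 in db/db against db/+ (-0.089 without db/db mouse 2, -0.023 without db/+ mouse 3, and up to 0.111 when another library was left out), Bnip3 (-0.094, and up to 0.442) and Ankrd37 (-0.044, and up to 0.436) in KO_db/db against db/db without db/db mouse 1, and, in KO_db/db against db/+, Hif1a (0.098 without KO_db/db mouse 2, 0.036 without db/+ mouse 1, 0.005 without db/+ mouse 2, and as low as -0.177) and Vegfa (0.02 without KO_db/db mouse 2, and as low as -0.086). Where a library was left out of a group of 2, the lone library was assumed to vary like the other group. Depth limits Adm, which had 5 counts or fewer in every library, and Car9, which had 4 or fewer in db/db and db/+.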
